A study of Mus musculus with 8 samples.

Results

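Aminoacyl-tRNA synthetases are the enzymes that join each amino acid to its transfer RNA, and their messages were followed in mouse embryonic stem cells that carry or lack p53, with and without DNA damage, in total polyadenylated RNA and in RNA recovered with an antibody to hnRNP L. Members were chosen by symbol, as every gene named by 1 amino acid letter followed by ars, with or without the suffix 2, together with Farsa and Farsb, the subunits of the phenylalanine enzyme, and Eprs, the fused enzyme for glutamate and proline. The rule took 51 of 30769 transcript records and 37 of 23560 genes, of which 20 encode cytosolic enzymes and 17, with the suffix 2, mitochondrial ones. All 37 passed the filter of a mean of 1 FPKM (fragments counted per length of transcript and per depth of library) over the 8 libraries, which left 11832 genes in the tests. Wars2 passed it through its RIP libraries alone.

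The groups were p53-/- cells given 0.5 uM Adriamycin for 8 h, untreated p53-/- cells, p53+/+ cells given the same dose and time, and untreated p53+/+ cells. Adriamycin (doxorubicin) is a drug that breaks DNA and activates p53. All cells were low-passage stem cells of mixed C57BL/6 and 129Sv background grown with serum and the cytokine LIF, and nothing in the labels says how many clones stand behind each genotype. Each group gave 1 input library and 1 library from RNA immunoprecipitation (RIP) with the hnRNP L antibody, so there were 8 libraries and 1 per group. hnRNP L is a nuclear RNA-binding protein known for binding CA-rich RNA and for regulating splicing, and without a control antibody among the libraries RIP over input is enrichment relative to the other messages of the same library.

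Cells make 2 sets of synthetases, 1 that serves cytosolic ribosomes and 1, encoded in the nucleus and imported, that serves mitochondrial ribosomes, while Kars and Gars each give both forms from a single gene. Several cytosolic enzymes sit in a multisynthetase complex held by the scaffold proteins Aimp1, Aimp2 and Eef1e1. When amino acids run short, the factor ATF4 is known to raise many cytosolic synthetase messages, together with genes of amino acid synthesis and transport, through a composite element recognised by C/EBP and ATF proteins.

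The libraries covered 5.67 to 7.48 Gb of transcript sequence in the inputs and 3.21 to 4.94 Gb in RIP. The share of the signal that fell on annotated transcripts was taken from the FPKM and length columns. It was 64.2% in Adriamycin-treated p53-/- RIP and 65.2% in untreated p53-/- RIP. In p53+/+ RIP the share was 41.1% Adriamycin-treated and 48.9% untreated, against 87.6% to 90.6% in the inputs. All 9 stem cell markers checked were above 1 FPKM in all 8 libraries. The 16 fibroblast markers summed to 646 and 551 FPKM in the treated and untreated p53-/- inputs, against 28.3 and 18.7 FPKM in the treated and untreated p53+/+ inputs. None of them was under 1 FPKM in the p53-/- inputs, and 9 and 11 of 16 were in the treated and untreated p53+/+ inputs. Trp53 itself was listed at 121 and 140 FPKM in the treated and untreated p53-/- inputs and at 173 and 236 FPKM in the treated and untreated p53+/+ inputs. These are values of whole transcripts and the deleted stretch is not given in the sources used here, so they do not check the genotype, and p53-/- below names the libraries so labelled. Mdm2, a gene that p53 activates, was at 16.5 and 14.8 FPKM in the treated and untreated p53-/- inputs, against 221 and 25.4 FPKM in the treated and untreated p53+/+ inputs. In RNA from whole cultures, fewer cells of a type and less RNA per cell cannot be told apart.

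Promoters of 27 of the 37 genes were in the RefSeq table of GRCm38.p6, each window running from 250 bases before the gene start to 50 after it. They were searched on both strands for TGATGNAA, the core of the C/EBP-ATF element, and for CACGTG, the E-box bound by MYC and its relatives, which share no bases in these windows. TGATGNAA was found in 5 of 13 cytosolic genes and 0 of 14 mitochondrial ones, in 2.54% of the 9348 tested genes with a window and in 10 of 28 other genes known as ATF4 targets. Of all 32851 windows in the table, 3.97% held it. CACGTG was found in Aars, Farsb, Iars and Tars among 13 cytosolic genes and in Ears2 among 14 mitochondrial ones, in 12.3% of tested genes and in 7.15% of all windows. Hars2 and Pars2 among the mitochondrial genes, and Cars, Hars, Lars, Nars, Rars, Vars and Wars among the cytosolic ones, had no window. The 5 windows shown, of the genes for alanine, glycine, isoleucine, threonine and tyrosine, are all the member windows with TGATGNAA. Capitals mark the matches, on the strand opposite to the gene in Aars, Gars, Iars and Tars and on that of the gene in Yars.
Aars (chr8:111033592-111033891, forward strand, GRCm38.p6): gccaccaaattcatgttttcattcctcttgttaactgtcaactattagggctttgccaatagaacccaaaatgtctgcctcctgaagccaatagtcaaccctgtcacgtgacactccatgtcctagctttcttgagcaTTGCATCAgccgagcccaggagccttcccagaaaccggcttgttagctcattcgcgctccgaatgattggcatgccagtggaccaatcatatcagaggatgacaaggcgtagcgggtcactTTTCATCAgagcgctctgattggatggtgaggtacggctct
Gars (chr6:55037751-55038050, forward strand, GRCm38.p6): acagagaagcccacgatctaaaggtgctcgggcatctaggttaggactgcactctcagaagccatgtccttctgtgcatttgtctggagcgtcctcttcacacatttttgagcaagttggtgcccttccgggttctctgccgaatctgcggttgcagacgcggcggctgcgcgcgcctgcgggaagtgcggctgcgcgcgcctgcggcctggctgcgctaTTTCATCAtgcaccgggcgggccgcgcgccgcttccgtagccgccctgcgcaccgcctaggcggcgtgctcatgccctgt
Iars (chr13:49681880-49682179, forward strand, GRCm38.p6): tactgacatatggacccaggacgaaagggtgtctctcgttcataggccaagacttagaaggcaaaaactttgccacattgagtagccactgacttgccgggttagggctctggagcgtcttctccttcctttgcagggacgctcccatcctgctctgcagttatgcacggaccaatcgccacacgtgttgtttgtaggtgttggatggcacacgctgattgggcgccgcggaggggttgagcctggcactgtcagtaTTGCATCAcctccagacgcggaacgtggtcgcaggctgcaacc
Tars (chr15:11399609-11399908, reverse strand, GRCm38.p6): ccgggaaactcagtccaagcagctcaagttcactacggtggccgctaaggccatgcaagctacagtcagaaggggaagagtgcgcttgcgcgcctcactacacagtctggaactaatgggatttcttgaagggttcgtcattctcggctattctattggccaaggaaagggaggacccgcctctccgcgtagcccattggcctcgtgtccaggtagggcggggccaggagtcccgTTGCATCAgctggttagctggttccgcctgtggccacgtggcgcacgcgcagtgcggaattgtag
Yars (chr4:129189653-129189952, forward strand, GRCm38.p6): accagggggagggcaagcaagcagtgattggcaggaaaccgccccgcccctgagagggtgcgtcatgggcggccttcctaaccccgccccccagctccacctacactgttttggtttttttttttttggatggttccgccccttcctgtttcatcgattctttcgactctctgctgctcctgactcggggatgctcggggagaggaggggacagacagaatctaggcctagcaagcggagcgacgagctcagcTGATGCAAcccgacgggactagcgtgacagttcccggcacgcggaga
A match is a string of letters and no measure of binding, and in Aars the string occurs at positions 139 and 260 of the window, in Gars at 221, in Iars at 258, in Tars at 236 and in Yars at 254.

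Among the inputs, cytosolic messages were several-fold more abundant than mitochondrial ones. The median cytosolic message was at 49.0 FPKM in Adriamycin-treated p53-/- cells, 54.9 in untreated p53-/- cells, 41.0 in Adriamycin-treated p53+/+ cells and 58.3 in untreated p53+/+ cells. The median mitochondrial message was at 9.30, 12.2, 12.9 and 12.4 FPKM in the same order of groups. Summed over the class, cytosolic messages outweighed mitochondrial ones by 4.82 and 4.64 times in treated and untreated p53-/- inputs and by 3.42 and 4.22 times in treated and untreated p53+/+ inputs. The lowest of the 4 ratios was thus that of treated p53+/+ cells, where the cytosolic sum was 981 FPKM against 1346 FPKM untreated.

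Kars, the lysine enzyme, was the most abundant member, with 264 and 264 FPKM in treated and untreated p53-/- inputs and 129 and 175 FPKM in treated and untreated p53+/+ inputs. Gars, for glycine, was at 97.0 and 106 FPKM in treated and untreated p53-/- inputs and at 119 and 126 FPKM in treated and untreated p53+/+ inputs. Rars, for arginine, was at 109 and 111 FPKM in treated and untreated p53-/- inputs and at 58.3 and 97.5 FPKM in treated and untreated p53+/+ inputs. Kars lay above Gars and Rars in all 4 inputs, while Gars and Rars changed places between the genotypes. Means over the 4 inputs then ran from Aars (72.4 FPKM) and Farsa (72.2) through Nars (66.9), Farsb (66.0), Dars (59.0), Eprs (53.2), Mars1 (53.2), Hars (48.1), Tars (47.6), Sars (41.4), Vars (38.2), Lars (37.7), Iars (36.0) and Yars (32.6) to Qars (31.4), Wars (30.9) and Cars (30.3). Apart from Kars and Gars, all neighbours in this order overlapped in their ranges over the 4 inputs.

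Lars2, for mitochondrial leucine, stood apart from its class with 63.5 and 81.1 FPKM in treated and untreated p53-/- inputs and 60.3 and 96.6 FPKM in treated and untreated p53+/+ inputs. Every other mitochondrial message was at 34.5 FPKM or less in every input. Yars2 averaged 28.1 FPKM, Tars2 27.6, Iars2 25.7, Rars2 23.9, Cars2 17.2, Sars2 15.2, Ears2 11.3 and Aars2 10.3, and Fars2, Hars2, Pars2, Vars2, Mars2 and Nars2 lay between 9.15 and 4.13. Wars2, for mitochondrial tryptophan, was the least abundant, at 0.733 and 0.675 FPKM in treated and untreated p53-/- inputs and at 1.07 and 0.947 FPKM in treated and untreated p53+/+ inputs. Its transcript of 4388 bases was covered 4.71 to 6.75 times on average in these libraries, so the low value rests on reads. Over the 4 inputs the range of Lars2 lay above that of Yars2, and the range of Nars2 above that of Wars2, without overlap.

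**Figure D1:**
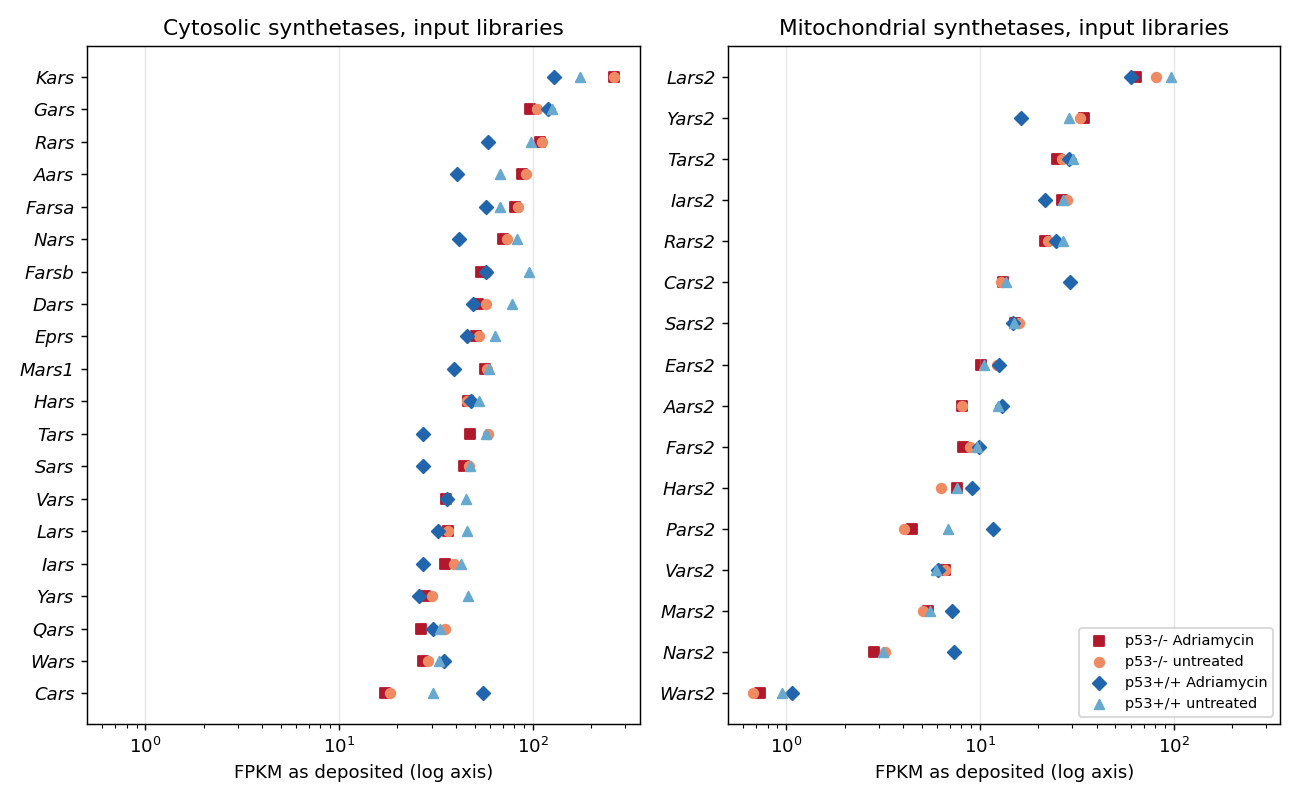
FPKM as deposited (log axis) of the 20 cytosolic synthetase messages (left) and 16 mitochondrial ones (right) in the 4 input libraries, 1 point per library, ordered by mean. Cytosolic messages sit between 17.3 FPKM (Cars) and 264 FPKM (Kars), Lars2 lies within that range, and Wars2 is near 1 FPKM.

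RIP was compared with input over the 4 combinations of genotype and treatment, each combination serving as a block, with limma on log2(scaled FPKM + 1), where each library had been scaled by its median ratio to the average library. P-values were adjusted by Benjamini-Hochberg over the 11832 genes. Nothing in the labels says that the libraries came from separate cultures, and p-values measure only the spread between these libraries, which here includes any effect of genotype or treatment on recovery.

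Of the 37 members 11 were called higher in RIP, 23 were called lower and 3 did not pass. Over all genes 37.3% were higher and 37.8% lower at the same threshold, so the count of higher members was below and the count of lower members above the background. By 1 or more on the log2 scale 3 members were higher and 3 lower, as were 1937 and 1603 of the 11832 genes. The 11 called higher were above 0, and the 23 called lower below 0, in each of the 4 combinations. Over all 11832 genes 4718 were higher and 4742 lower in all 4. The calls rest on these same 4 differences, so agreement in sign adds no separate support. Without the pairing of RIP and input libraries in the model, 8 were called higher and 9 lower. With FPKM as deposited, without scaling, the median of all genes moved to -0.72, and 7 of the 11 (Cars, Eprs, Ears2, Hars2, Sars2, Tars2 and Vars2) turned to a negative difference.

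Iars, the cytosolic isoleucine enzyme and a member of the multisynthetase complex, carried the largest enrichment. It was at 341 and 456 FPKM in treated and untreated p53-/- RIP and at 254 and 482 FPKM in treated and untreated p53+/+ RIP. Its inputs held 35.0 and 39.3 FPKM in treated and untreated p53-/- cells and 27.0 and 42.8 FPKM in treated and untreated p53+/+ cells. Every RIP library was thus far above every input before any scaling, and Iars was the most abundant member in all 4 RIP libraries although 15 cytosolic messages exceeded it by mean input level. On the scaled log2 scale it was 4.27 higher (SE 0.16, adjusted p = 1.1e-05), a 19.3-fold difference, and 0.507% of all tested genes were enriched more. In mm9, the build of the files, the gene lies at chr13:49777499-49829636.

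Wars2, the scarcest member in input, came next. It was at 8.997 and 10.8 FPKM in treated and untreated p53-/- RIP and at 15.8 and 18.0 FPKM in treated and untreated p53+/+ RIP, against 0.675 to 1.07 FPKM in the inputs given above. The groups did not overlap. The scaled difference was 3.56, and since 1 FPKM was added to every value it understates the ratio of so low a message. Because the message passed the filter on low values through RIP alone, this difference is given as a description, and Wars2 is 1 of the 11 members counted as higher. The gene lies at chr3:98945013-99024126 in mm9.

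Cars2, for mitochondrial cysteine, was at 19.4 and 23.1 FPKM in treated and untreated p53-/- RIP and at 45.4 and 20.6 FPKM in treated and untreated p53+/+ RIP. Its inputs held 13.1 and 12.9 FPKM in treated and untreated p53-/- cells and 29.2 and 13.6 FPKM in treated and untreated p53+/+ cells. Each RIP library was above its own input, but the treated p53+/+ input exceeded 3 of the RIP libraries as deposited. The scaled difference was 1.52 (SE 0.16, adjusted p = 0.000169). These 3 members were the ones that still passed as higher without scaling.

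The other members called higher did so by less than 1 on the log2 scale, namely Aars2 (0.86), Cars (0.85), Eprs (0.79), Tars2 (0.75), Ears2 (0.66), Sars2 (0.49), Hars2 (0.34) and Vars2 (0.29). Aars2, for mitochondrial alanine, was at 12.03 and 9.83 FPKM in treated and untreated p53-/- RIP and at 8.74 and 10.3 FPKM in treated and untreated p53+/+ RIP. Its inputs held 8.09 and 8.03 FPKM in treated and untreated p53-/- cells and 12.9 and 12.4 FPKM in treated and untreated p53+/+ cells. As deposited, RIP was above input in p53-/- cells and below it in p53+/+ cells, and the enrichment in p53+/+ cells appeared only after scaling.

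Dars, the cytosolic aspartate enzyme, was depleted the most, by 1.31 (SE 0.10, adjusted p = 4.2e-05). It was at 15.6 and 13.6 FPKM in treated and untreated p53-/- RIP and at 7.74 and 11.9 FPKM in treated and untreated p53+/+ RIP, against inputs of 52.1 and 57.3 FPKM in treated and untreated p53-/- cells and 49.1 and 77.6 FPKM in treated and untreated p53+/+ cells. The 2 sets of libraries did not overlap. Gars (-1.02), Hars (-0.98), Mars1 (-0.98), Farsa (-0.89), Fars2 (-0.85) and Tars (-0.81) followed, and Wars, Yars2, Lars2, Farsb, Yars, Rars, Kars, Rars2, Nars2, Lars, Aars, Nars, Mars2 and Vars were lower by 0.76 to 0.27. Qars, for glutamine, was lower by 1.05 (SE 0.19, adjusted p = 0.00243), but its value is uncertain: an annotated record with no symbol overlaps it over 6463 bases of the genome, and how the authors' counting split reads between them is not given in the sources used here. Smaller overlaps with a neighbour, of 68 bases in Mars1 (with Ddit3), 85 in Iars2 (with Rab3gap2) and 30 in Yars (with C77080), may share reads, since the use of strand in counting is not given either. Sars, Pars2 and Iars2 did not pass, with adjusted p of 0.967, 0.421 and 0.0815.

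The classes differed in this measure. Of 20 cytosolic messages 3 were higher, 16 lower and 1 not called, with a median of -0.55. Of 17 mitochondrial ones 8 were higher, 7 lower and 2 not called, with a median of 0.29. Wars2, whose difference is a description, is 1 of these 8. Over all genes 37.3% were higher and 37.8% lower, with a median of 0.00. Among genes averaging at least 5 FPKM that median was -0.18, so it was lower where scarcer genes were left out. The classes were not matched by abundance, and the part of abundance in their difference was not tested. The cytosolic median was below the mitochondrial one by 0.78 and 0.66 in treated and untreated p53-/- cells and by 0.97 and 0.90 in treated and untreated p53+/+ cells. In deposited FPKM, cytosolic messages exceeded mitochondrial ones by 1.62 to 2.41 times in RIP medians, against 3.17 to 5.26 times in input medians. Summed over the class, where Iars weighs most in RIP, the ratio was instead 5.40 and 4.89 in treated and untreated p53-/- RIP and 3.09 and 4.70 in treated and untreated p53+/+ RIP, above that of the matching input in 3 of 4 combinations. Members are not replicates of a class, so no test was run on the medians.

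**Figure D2:**
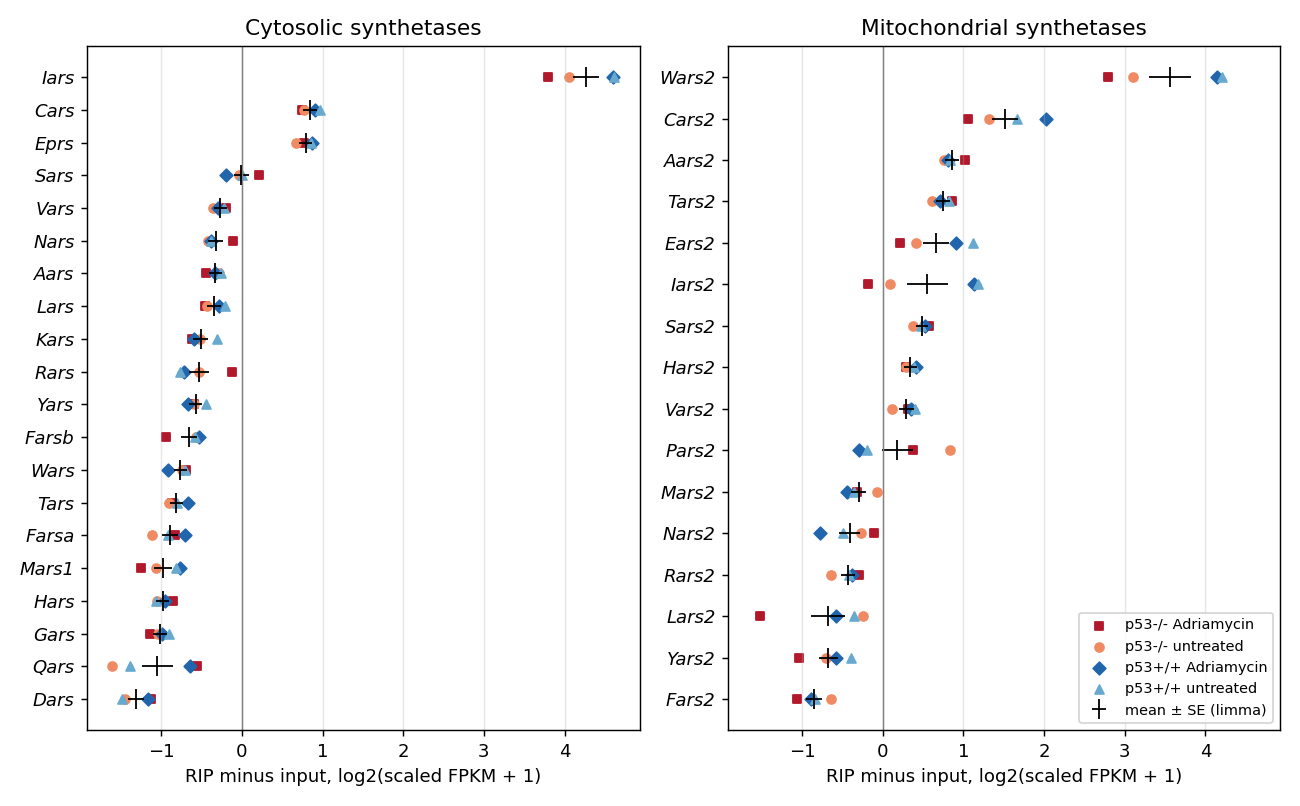
RIP minus input on the log2(scaled FPKM + 1) scale for 20 cytosolic (left) and 16 mitochondrial (right) members, with 1 coloured point per combination of genotype and treatment and a black mark with a bar for the limma mean and its SE. Iars and Wars2 lie near 4, most cytosolic members lie left of 0 and 10 of the 16 mitochondrial means plotted lie right of it; without scaling 9 of the members plotted right of 0 move left of it.

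Within the multisynthetase complex, Iars and Eprs were higher in RIP and Lars, Qars, Mars1, Kars, Rars and Dars lower. Eprs was at 59.1 and 56.9 FPKM in treated and untreated p53-/- RIP and at 31.2 and 52.2 FPKM in treated and untreated p53+/+ RIP, against 50.6 and 52.5 FPKM in treated and untreated p53-/- inputs and 45.7 and 63.9 FPKM in treated and untreated p53+/+ inputs. Of the scaffold messages Aimp1 was higher (0.67) and Aimp2 (-1.37) and Eef1e1 (-2.23) were lower. By catalytic fold, the class I enzymes had 7 higher and 11 lower of 19, and the class II enzymes 4 higher and 12 lower of 18. Eprs, the fused enzyme for glutamate and proline, was counted in class I only, although Pars2, for mitochondrial proline, was counted in class II. Of 12 messages for tRNA editing proteins, synthetase relatives and enzymes of tRNA-dependent amino acid conversion, 3 were higher and 7 lower, and Gatc, a subunit of the mitochondrial glutamyl-tRNA amidotransferase, was higher by 4.70. Of 28 other ATF4 targets tested 6 were higher, with Slc7a1, a cationic amino acid transporter, at 4.07, and 17 lower. None of 5 cytosolic elongation factors was higher and 4 were lower, and of 9 mitochondrial translation factors 2 were higher and 5 lower. At the same threshold 37.3% of all genes were higher and 37.8% lower, and no set was tested against these shares.

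Tars2, for mitochondrial threonine, had 4 transcript records whose mix differed between RIP and input. The record of 2265 bases took 78.9% and 73.6% of the gene's FPKM in treated and untreated p53-/- RIP, against 58.4% and 48.9% in the treated and untreated p53-/- inputs. In p53+/+ cells it took 64.8% and 78.1% in treated and untreated RIP, against 34.7% and 34.0% in the treated and untreated inputs. The RIP shares did not overlap the input shares. The record of 2508 bases held most of the rest, with 18.5% to 32.9% in RIP and 38.5% to 64.2% in input. Shares between records of a gene are estimates of the authors' assembly program from reads that the records have in common, and no test was run on them. The other 10 members with more than 1 record were summed in the same way, and in most of them 1 record dominated, as in Dars, where it held 99.8% or more in each input.

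**Figure D3:**
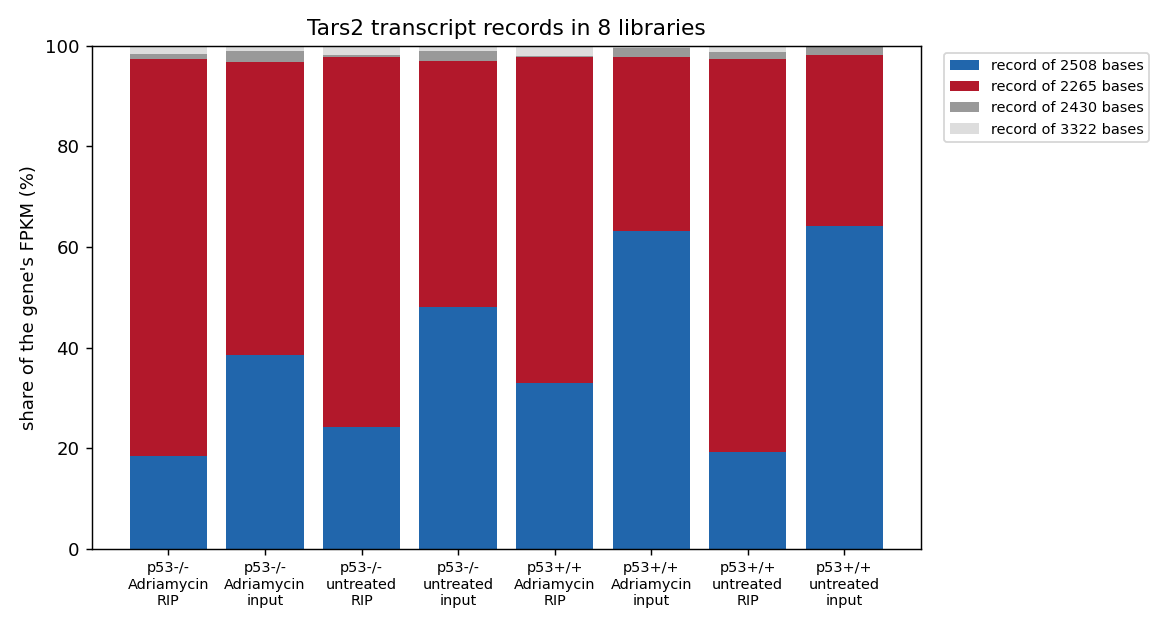
Share of the FPKM of Tars2 held by each of its 4 transcript records (stacked bars, in percent) in the 8 libraries, RIP left of the input of the same cells. The record of 2265 bases holds 64.8% to 78.9% in RIP and 34.0% to 58.4% in input.

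The genotypes were also compared by their RIP/input ratios, with 2 ratios a side, so that the treatments stand in for replicates. Of all genes 0.947% had a higher ratio and 1.44% a lower one in p53-/- cells at an adjusted p of 0.05, and of the members 0 were higher and 1 lower, while 10 members, and 2477 of the 11832 genes, had an unadjusted p under 0.05. The exception was Iars2, for mitochondrial isoleucine. RIP minus input was -0.18 and 0.09 in treated and untreated p53-/- cells, against 1.14 and 1.18 in treated and untreated p53+/+ cells, a difference of -1.20 (SE 0.18, adjusted p = 0.0231). Its deposited RIP values were 15.5 and 20.2 FPKM in treated and untreated p53-/- cells and 18.1 and 27.6 FPKM in treated and untreated p53+/+ cells, and its inputs were 26.3 and 27.99 FPKM in treated and untreated p53-/- cells and 21.6 and 26.7 FPKM in treated and untreated p53+/+ cells. The call was lost under 6 of 11 alternatives, among them leaving out either p53-/- ratio (adjusted p = 0.293 without the treated one and 0.172 without the untreated one), with adjusted p between 4.5e-05 and 0.293 over all of them. The share of RIP signal on transcripts, which was higher in both p53-/- libraries, moved with the genotype. The RIP/input ratios of all 15 fibroblast markers tested were lower in p53-/- cells, with a median of -0.85, and 9 were called lower. Most of these markers were under 1 FPKM in the p53+/+ libraries, where adding 1 FPKM holds a ratio near 0. Their median RIP minus input was 0.03 and 0.02 in treated and untreated p53+/+ cells. Their lower ratios therefore cannot be read as a genotype difference in recovery. The part of the transcript share or of the fibroblast markers in the Iars2 result was not tested. Pars2 (0.84, SE 0.19, adjusted p = 0.0601) and Ears2 (-0.71, SE 0.18, adjusted p = 0.0848) did not pass. Wars2 (-1.23) did not pass either, and its value is given as a description. It entered the tests through its RIP libraries alone, and its inputs are near the 1 FPKM added to every value. Wars2 is also 1 of the 10 members with an unadjusted p under 0.05.

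Adriamycin was set against no treatment within each genotype to see how the messages behave under DNA damage. Each contrast rests on 1 library a side and has no test; counts use a difference of 0.5 or 1 on the log2(scaled FPKM + 1) scale, and the untreated library of each genotype also enters the genotype contrasts below. In p53+/+ cells cytosolic messages were lower almost as a body, with 19 of 20 below 0 in input and 18 of 20 in RIP. Of all 11832 genes 6414 were below 0 in input and 6495 in RIP. The cytosolic medians were -0.66 in input and -0.67 in RIP, against -0.05 in input and -0.07 in RIP over all genes. Among genes averaging at least 5 FPKM the input median was -0.16. The members were not matched to all genes by abundance. Mitochondrial messages were mixed, with a median of -0.07 in input and -0.09 in RIP. Of 37 members 16 were lower and 4 higher by 0.5 or more in input, where 18.8% of all genes were lower and 18.3% higher. By 1 or more, 2 members were lower and 0 higher in input, against 3.96% and 8.43% of all genes, and 6 were lower and 1 higher in RIP, against 5.38% and 9.43%.

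Tars, the cytosolic threonine enzyme, had the lowest input difference, with 27.1 FPKM in the treated p53+/+ input against 57.1 in the untreated one. In p53+/+ RIP it was at 6.07 FPKM treated and 14.3 untreated, so the differences were -1.16 in input and -1.03 in RIP. Nars, for asparagine, was at 41.5 FPKM in the treated p53+/+ input against 83.1 untreated, and at 11.5 against 28.3 in RIP, differences of -1.10 and -1.11. Yars, for tyrosine, was at 25.8 FPKM treated against 46.4 untreated in the p53+/+ input and at 5.80 against 15.1 in RIP, or -0.94 and -1.16. Sars, for serine, was at 27.0 FPKM treated against 47.4 untreated in the p53+/+ input and at 8.64 against 21.1 in RIP, or -0.90 and -1.09. On the scaled log2 scale the treated p53+/+ inputs thus held 44.8% of the untreated level of Tars, 46.5% of Nars, 52.2% of Yars and 53.4% of Sars. Among the other cytosolic members Aars (-0.86), Rars (-0.85), Farsb (-0.84), Dars (-0.77), Iars (-0.76) and Mars1 (-0.72) followed in input. A pair of mitochondrial messages lay in the same range: Yars2 was at 16.2 FPKM in the treated p53+/+ input against 28.9 untreated and at 3.83 against 9.70 in RIP, differences of -0.90 and -1.09. Lars2 was at 60.3 FPKM in the treated p53+/+ input against 96.6 untreated and at 14.7 against 33.4 in RIP, or -0.79 and -1.01. Of the 5 genes whose promoters are printed above, Gars was the one that differed least, at -0.20.

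The bounds the authors gave for each estimate allow a second reading of these pairs, for genes with 1 record. After scaling, the bounds of all 13 such cytosolic members lay lower in the treated p53+/+ input without overlap, against 39.8% of all 9016 genes with 1 record. Of 13 such mitochondrial members 4 were lower, among them Iars2, Lars2 and Rars2, and 3 were higher (Cars2, Mars2 and Nars2), where 31.5% of all such genes were higher. In p53-/- inputs 11 of the 13 cytosolic members also lay lower after treatment without overlap and 0 higher, and of the mitochondrial ones 4 lay lower and 1, Hars2, higher, against 19.0% of all such genes lower and 13.6% higher. These bounds describe the estimate in 1 library and not the spread between cultures. Relative to the value they are narrower for abundant messages, so small differences pass more easily there. Gars was among the 13 cytosolic members with a difference of -0.20. The genes behind the shares reach down to a mean of 1 FPKM and were not matched to the members by abundance.

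Members higher after Adriamycin in p53+/+ cells were few and included both cysteine enzymes. Cars2 was at 29.2 FPKM in the treated p53+/+ input against 13.6 untreated, and at 45.4 against 20.6 in RIP, differences of 0.91 and 1.26. Cars, the cytosolic cysteine enzyme, was at 55.0 FPKM in the treated p53+/+ input against 30.6 untreated, and at 38.4 against 27.2 in RIP, differences of 0.70 and 0.63. Nars2, for mitochondrial asparagine, was at 7.29 FPKM in the treated p53+/+ input against 3.16 untreated, and at 1.35 against 0.826 in RIP, differences of 0.83 and 0.56. Pars2, for mitochondrial proline, was at 11.6 FPKM in the treated p53+/+ input against 6.81 untreated and at 3.39 against 2.58 in RIP, differences of 0.55 and 0.45. For cysteine both the cytosolic and the mitochondrial message was higher; for asparagine the mitochondrial message was higher and the cytosolic one lower.

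In p53-/- cells the input differences after the same treatment were small. None was higher or lower by 0.5 or more in input, where 0.718% of all genes were higher and 1.21% lower by that much, and 0.144% and 0.186% by 1 or more. All 20 cytosolic messages were nonetheless below 0, with a median of -0.14, and the mitochondrial median was -0.13. Of all 11832 genes 5943 were below 0, with a median of 0.00, or -0.03 among those averaging at least 5 FPKM. In p53-/- RIP 12 of 20 cytosolic messages were below 0, with a median of -0.09, and the mitochondrial median was -0.30. Of all 11832 genes 6450 were below 0 there, with a median of -0.03, so the cytosolic count was near the share of all genes. Tars was at 47.3 FPKM in the treated p53-/- input and 58.9 in the untreated one, a difference of -0.38. Cars2 was at 13.1 FPKM treated and 12.9 untreated, Cars at 17.3 treated and 18.3 untreated, and Nars2 at 2.83 treated and 3.23 untreated in the p53-/- inputs. Lars2 was at 63.5 FPKM in the treated p53-/- input and 81.1 in the untreated one, a difference of -0.42, and at 14.3 FPKM treated and 46.3 untreated in p53-/- RIP, a difference of -1.70. It was the 1 member lower by 1 or more in p53-/- RIP, where 0.27% of all genes were, and 0 were higher, against 0.203%. Ears2, for mitochondrial glutamate, was at 10.1 FPKM treated and 12.2 untreated in the p53-/- input (-0.31) and at 8.01 and 11.3 FPKM in RIP (-0.51). Hars2, for mitochondrial histidine, was the member highest above 0 with the same sign in both, at 7.62 FPKM treated and 6.27 untreated in the p53-/- input (0.18) and at 6.48 and 5.34 FPKM in RIP (0.18).

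**Figure D4:**
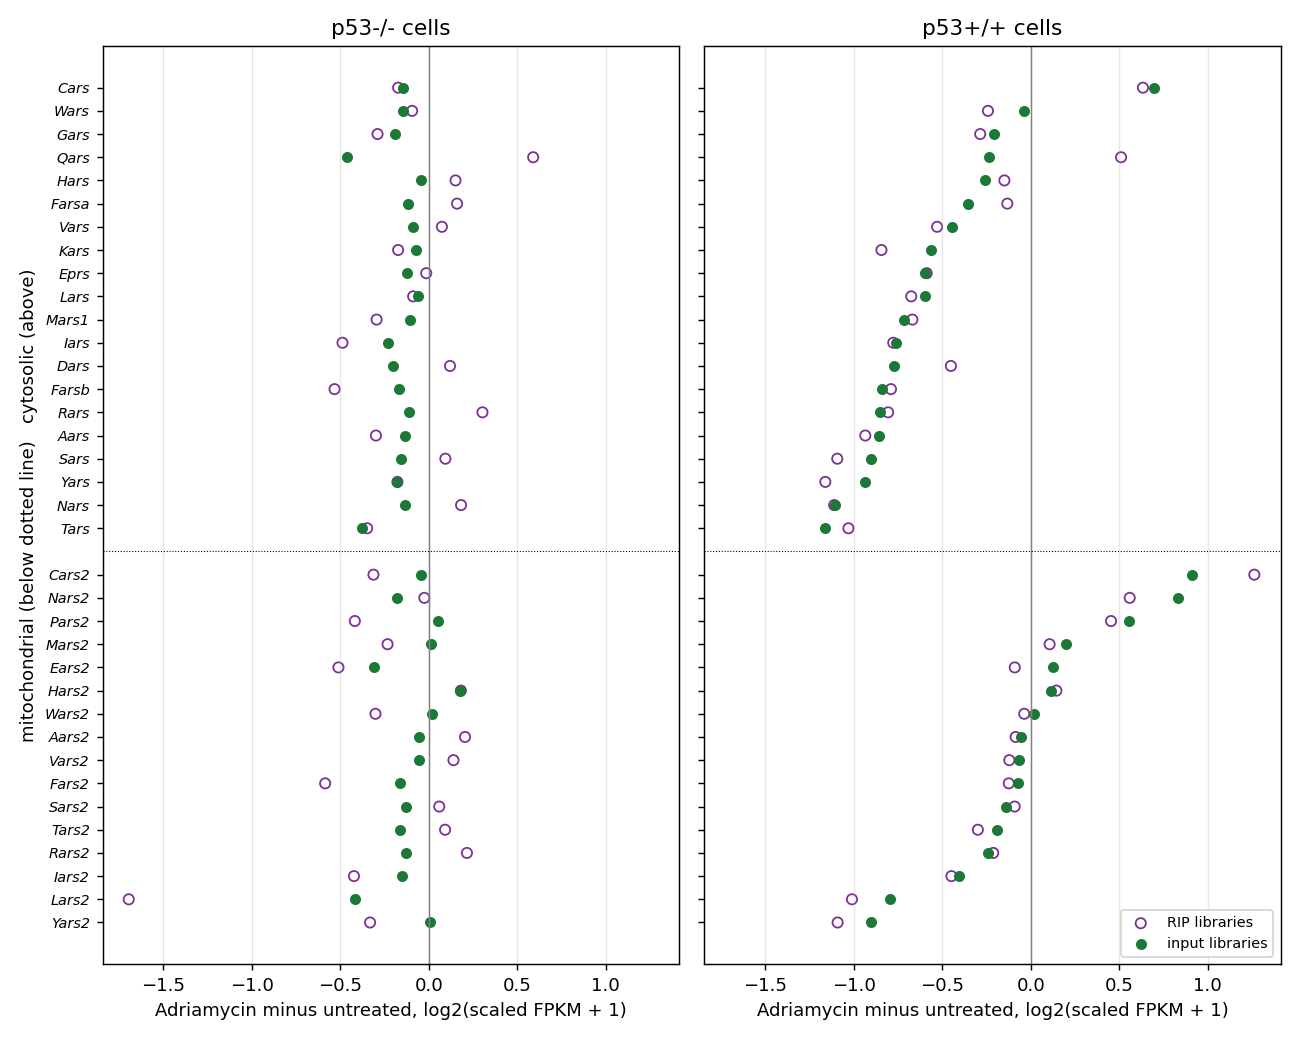
Adriamycin minus untreated on the log2(scaled FPKM + 1) scale for 36 members in p53-/- cells (left) and p53+/+ cells (right), from input (filled) and RIP (open) libraries, 1 library a side. In p53+/+ cells 19 of 20 cytosolic inputs lie left of 0, with Cars at 0.70 on the right, while in p53-/- cells all inputs lie within 0.5 of 0 and Lars2 in RIP stands at -1.70.

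The difference between the genotypes in this response, p53+/+ minus p53-/-, had a median of -0.53 over cytosolic members and -0.01 over mitochondrial ones in input. Of the 20 cytosolic members 11 were at -0.5 or below. Over all genes the median was -0.05, and 1950 of 11832 were at -0.5 or below. All 9 stem cell markers were also lower after Adriamycin in p53+/+ input, 5 of them by 1 or more with a median of -1.06, and in p53-/- input their median was -0.47; the part of this shift in the synthetase values was not tested.

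The wider amino acid response was mixed under the same treatment. Of the 13 synthetases known as ATF4 targets 12 were below 0 in p53+/+ input, 9 of them by 0.5 or more, with a median of -0.72, and Cars was the exception. All 13 are cytosolic. Of all 20 cytosolic members 19 were below 0, 13 of them by 0.5 or more, with a median of -0.66. These 20 include the 13. Of the cytosolic members outside the ATF4 list, Rars (-0.85), Farsb (-0.84), Dars (-0.77) and Kars (-0.56) were also lower by 0.5 or more. Farsa (-0.35), Hars (-0.26) and Qars (-0.24) were lower by less. Lower values thus occurred on and off the list, and the part of ATF4 was not tested. Of 28 other ATF4 targets tested 5 were lower by 1 or more, with a median of -0.41 over all 28. These 5 were Asns, the asparagine synthetase (-1.39), Chac1 (-1.28), Atf4 itself (-1.27), Psat1, of serine synthesis (-1.04), and Aldh18a1, of proline synthesis (-1.02). Another 4 were higher by 1 or more, among them Ddit4 (1.92), Cebpb (1.71) and Sesn2 (1.57), and Ddit4 and Sesn2 are also known as p53 targets. The 8 enzymes of the multisynthetase complex were all below 0, with a median of -0.66, and its 3 scaffold messages had a median of -0.48. Cytosolic elongation factors had a median of -0.08 and mitochondrial translation factors one of -0.12. Tarsl2, a relative of Tars, was higher by 1.51 where Tars itself was lower.

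Between untreated genotypes 0 of 37 members were higher or lower by 1 or more in input, against 3.22% and 2.44% of all genes. Counts of 0 among 37 are near those shares and show nothing particular to the members. By 0.5 or more 1 was higher and 6 lower, against 12.3% and 11.7% of all genes. Kars was the higher one, at 264 FPKM in untreated p53-/- input against 175 in untreated p53+/+ input, and at 124 against 62.9 FPKM in RIP, differences of 0.58 and 0.37. Farsb was at 57.7 FPKM in untreated p53-/- input against 95.1 in untreated p53+/+ input, and at 25.9 against 28.1 FPKM in RIP, differences of -0.72 and -0.71. Cars was at 18.3 FPKM in untreated p53-/- input against 30.6 in untreated p53+/+ input, and at 21.7 against 27.2 FPKM in RIP, differences of -0.71 and -0.91. Yars (-0.61) and Aars2 (-0.56) were the next lower members with the same sign in RIP. In RIP 2 members, Iars2 and Wars2, were lower and 0 higher by 1 or more, against 5.38% and 3.99% of all genes.

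The genotypes were also compared after Adriamycin, in contrasts that use the same treated p53+/+ library as the drug contrast above and so are not a separate measurement. In input 3 members were higher and 4 lower by 1 or more in p53-/- cells, against 7.77% and 10.8% of all genes, and in RIP 5 were higher and 4 lower, against 8.85% and 14.3%. In input these member counts were close to the shares of all genes, so they show nothing particular to the members. By 0.5 or more 9 were higher and 5 lower in input, against 23.3% and 21.6% of all genes. Aars was at 88.4 FPKM in treated p53-/- input against 40.4 in treated p53+/+ input, and at 43.6 against 11.7 FPKM in RIP, differences of 1.15 and 1.03. Yars2, for mitochondrial tyrosine, was at 34.5 FPKM in treated p53-/- input against 16.2 in treated p53+/+ input, and at 10.9 against 3.83 FPKM in RIP, differences of 1.07 and 0.61. Kars differed by 1.07 in input and 1.04 in RIP, and Rars by 0.92 in input and 1.52 in RIP. Cars (-1.55 in input and -1.72 in RIP), Cars2 (-1.04 and -2.01), Pars2 (-1.11 and -0.45) and Nars2 (-1.002 and -0.34) were the members lower by 1 or more in p53-/- input. The cytosolic median was 0.19 and the mitochondrial one -0.19 in input, against 0.05 over all genes. The fibroblast markers and the share of RIP signal on transcripts given above moved with the genotype in both contrasts, and their part in these differences was not tested.

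**Figure D5:**
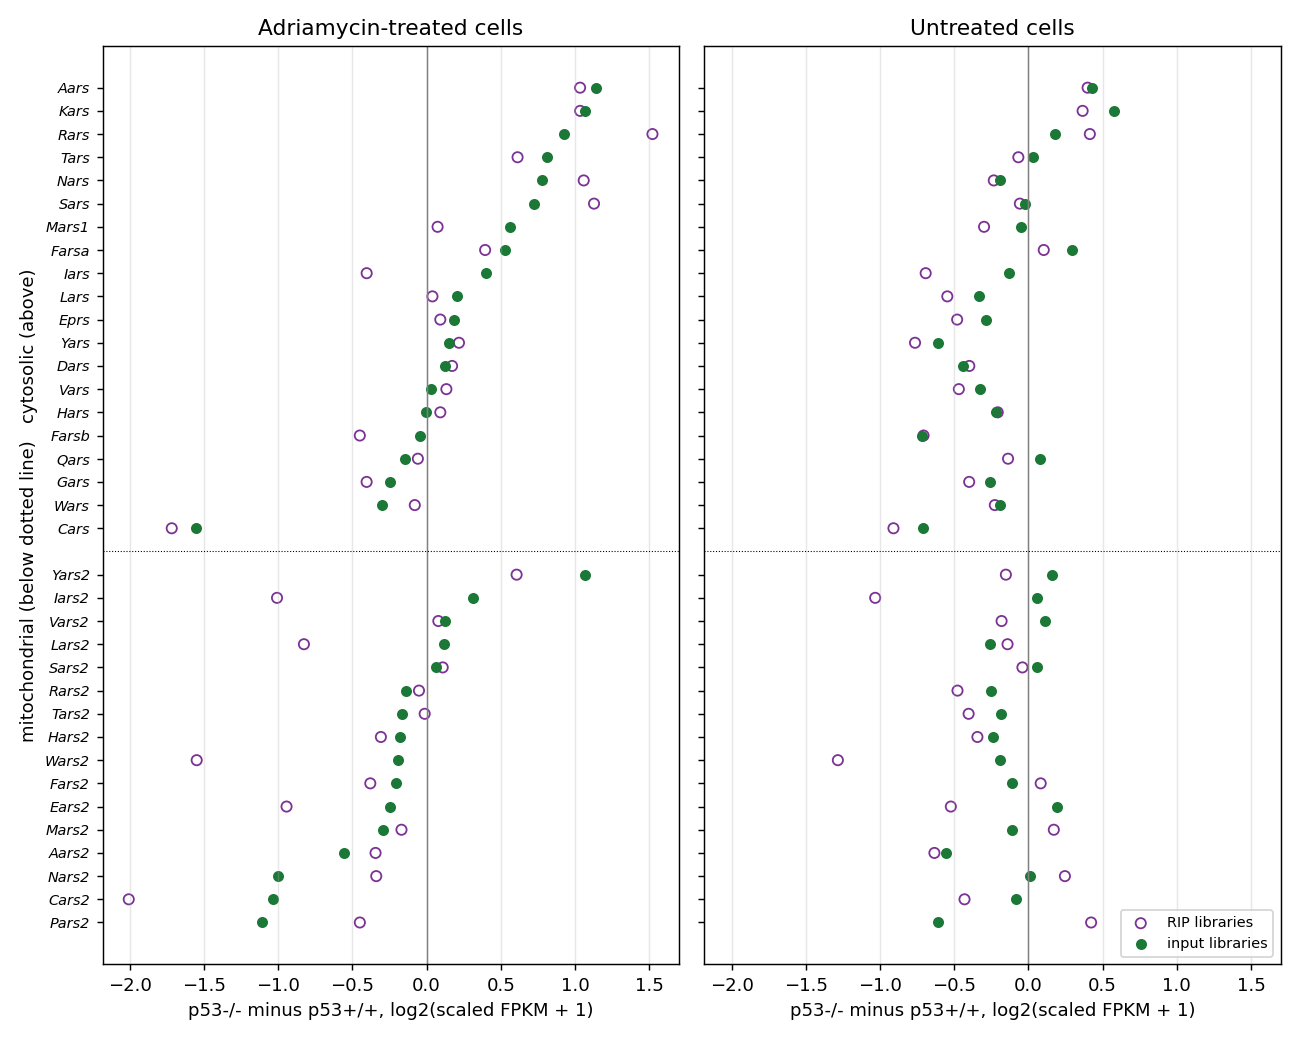
p53-/- minus p53+/+ on the log2(scaled FPKM + 1) scale for 36 members in Adriamycin-treated (left) and untreated (right) cells, from input (filled) and RIP (open) libraries, 1 library a side. Untreated inputs all lie within 1 of 0, and in treated cells Aars, Yars2 and Kars lie above 1 and Cars, Pars2, Cars2 and Nars2 at -1 or below.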

How the data were processed

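TruSeq libraries of polyadenylated input RNA and of hnRNP L RIP RNA were sequenced, per the labels' protocols, and CASAVA 1.8.2, TopHat, TopHat2 2.0.8, Cufflinks and build mm9 are named in the submitters' processing notes. The authors deposited 1 FPKM value with lower and upper bounds for each RefSeq transcript record, per the file headers. They also deposited a coverage signal per record, used here only for depth. No settings and no Cufflinks version are stated there.

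Of 30769 records 30227 (98.2%) were matched by accession to symbols in a RefSeq table of GRCm38.p6, and FPKM was summed per gene. Median-ratio scaling (factors 0.532 to 1.45) and log2 after adding 1 FPKM followed. The 11832 genes averaging at least 1 FPKM were tested with limma 3.58.1 in R 4.3.3 (lmFit, eBayes with trend) and called at an adjusted p under 0.05, after the code had been tested on simulated data. Residual degrees of freedom were 3 for RIP against input and 2 for the genotype difference of ratios. Contrasts of 1 library a side have no test. RIP and input were paired by genotype and treatment, as the labels give them.

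The members and the gene lists were chosen with earlier results of these data known. Members given with values in each library were the 3 most and least abundant of each class and up to 4 per direction and contrast with the same sign in input and RIP. 1 mitochondrial member is counted in the totals and medians and is otherwise not reported here. Alternatives were other scalings, pseudocounts, filters, single records, no block, no trend, left-out libraries and RIP in place of input.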

Additional observations from a re-analysis of the deposited data

Results flagged for a closer look

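For 3 members the Adriamycin differences of the genotypes pointed in opposite directions in both input and RIP, so that after scaling every p53+/+ pair was higher with Adriamycin and every p53-/- pair lower. In p53-/- cells some of these differences were near 0 and turned without scaling: Cars2 was at 13.1 FPKM treated and 12.9 untreated in input, and Nars2 at 1.70 treated and 1.66 untreated in RIP, as deposited. In input, the difference in p53+/+ cells minus that in p53-/- cells was 0.84 for Cars, 0.95 for Cars2 and 1.01 for Nars2 on the log2(scaled FPKM + 1) scale. This was not tested, since each genotype has 1 library per treatment and kind.

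For Iars2 the RIP/input ratio was lower in p53-/- cells than in p53+/+ cells by the test of that difference (limma, -1.20, adjusted p = 0.0231).

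In 2 members 1 combination lay apart from the other 3 in RIP minus input, both times the Adriamycin-treated p53-/- pair. For Farsb it was -0.94 with the nearest combination at -0.58, a gap of 0.873 of the whole range. For Nars it was -0.11 with the nearest at -0.38, a gap of 0.872 of the range. Both gaps exceed the 95% critical value of Dixon for 4 values, which chance exceeds in about 1 group of 20, so that about 2 of the 37 members examined would be marked by chance and 2 were.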

How the results depend on the processing

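The pairing of each RIP library with the input of the same cells carries many of the RIP calls: with no replicate block 8 members were called higher and 9 lower, against 11 and 23 with it, and over all genes 2690 and 2672 against 4412 and 4470. With FPKM as deposited the median of all genes moved to -0.72 and members called higher fell to 3; Cars (-0.0573), Ears2 (-0.19), Eprs (-0.12), Hars2 (-0.46), Iars2 (-0.34), Pars2 (-0.59), Sars2 (-0.38), Tars2 (-0.15) and Vars2 (-0.48) changed sign, and 1540 genes were higher and 7246 lower. Under the other alternatives 395 of the member values kept their direction and side of the threshold, 40 lost the call, 1 gained it and 6 changed sign, all in members not called: Pars2 was -0.011 under quantile normalization and -0.0384 to 0.338 with 1 combination left out, and Sars was 0.0668 under quantile normalization, 0.00600 with the highest record only and -0.0777 to 0.058 with 1 combination left out. Leaving out 1 combination gave 10 to 11 higher and 19 to 22 lower members. The class difference in RIP, -0.85, was -0.59 under quantile normalization, -0.67 with a pseudocount of 5 FPKM and -0.91 to -0.83 with 1 combination left out. With a filter of 5 FPKM, 2523 genes were higher and 3414 lower, and the median of all genes was -0.18.

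For the genotype difference of the RIP/input ratio, members called higher numbered 18 with FPKM as deposited (median of all genes 0.53, with 4855 genes higher), 1 with a filter of 5 FPKM and 0 to 2 with 1 ratio left out, against 0. Members called lower numbered 0 with FPKM as deposited, a pseudocount of 5, no filter or the highest record only, 2 with a filter of 5 and 0 to 2 with 1 ratio left out, against 1. Calls over all genes numbered 0 in either direction with a pseudocount of 5, no filter or the highest record only. As deposited, Cars2 (0.0741), Iars (0.0492), Mars1 (0.32) and Yars2 (0.25) changed sign. The class difference was -0.0108 with a pseudocount of 5, against 0.02. With 1 ratio left out, the lone ratio is assumed to vary like the others.

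Contrasts of 1 library a side moved with the scaling and the kind of library. In RIP, members lower by 1 or more numbered 2 between untreated genotypes, 6 for Adriamycin in p53+/+ cells and 1 in p53-/- cells, members higher numbered 5 between treated genotypes and 1 for Adriamycin in p53+/+ cells, and the class difference turned to 0.0775 between untreated genotypes and 0.21 for Adriamycin in p53-/- cells. Quantile normalization left 1 higher and 1 lower between treated genotypes and 1 lower for Adriamycin in p53+/+ cells. A pseudocount of 5 left 1 lower between treated genotypes, and FPKM as deposited gave 1 higher and 1 lower for Adriamycin in p53+/+ cells. The cause of these changes was not tested. Counts of all genes at 1 or more fell by over 1.5 times with a pseudocount of 5 in each of these contrasts. Messages near 1 FPKM, such as Wars2 in input, are measured least precisely, and with 1 library per group no spread between cultures is known.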

Other observations

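Wars, the cytosolic tryptophan enzyme, differed by little in its total after Adriamycin in p53+/+ input (-0.04), but its 3 transcript records shifted. The record of 1842 bases held 17.5% of the gene's FPKM in treated p53+/+ input and 6.5% in untreated p53+/+ input, and 6.79% and 3.05% in treated and untreated p53-/- inputs. In RIP it held 14.7% and 7.93% in treated and untreated p53+/+ libraries and 8.31% and 2.97% in treated and untreated p53-/- libraries. The share was thus higher after Adriamycin in all 4 pairs of libraries, and it was not tested.

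The difference between genotypes in the Adriamycin response, p53+/+ minus p53-/-, was also present in RIP. Its median was -0.57 over the cytosolic members, -0.02 over the mitochondrial ones and -0.04 over all genes. Cars2 stood at 1.58 and Cars at 0.81 there.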
